A study of Mus musculus with 6 samples.

Results

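The Bcl-2 family genes described here are 10 genes of the mitochondrial pathway of cell death, namely Bcl2, Bcl2l1, Mcl1, Bcl2l11, Bcl2l15, Bax, Bak1, Bid, Bik and Pmaip1. Their transcripts were measured in progenitor cells of mouse marrow that had been separated by fluorescence from a GFP allele of Hes1, a target gene of Notch signalling. All probe sets were taken whose platform annotation gives exactly 1 gene symbol and whose symbol is in the list. This gave 30 probe sets for 9 of the 10 genes, among 18193 genes and 45037 probe sets in all. No probe set was matched to Bax under this rule, and Bax is not analysed here.

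The GFP-positive group and the GFP-negative group had 3 Affymetrix arrays each. Both came from male mice aged 6 weeks that carried 1 Hes1 GFP allele and 1 wild-type allele, so reporter-negative cells carry the reporter too. All cells were lineage-negative, c-Kit-positive and Sca-1-negative marrow cells, the phenotype of myeloerythroid progenitors. Whether each array stands for a different animal is not stated in the labels, so every p-value here rests on a spread between arrays that may be technical. Precision is limited by having so few arrays. Jchain encodes the joining chain of secreted immunoglobulins. Its log2 intensities were 8.65, 3.69 and 3.64 in GFP-positive arrays, against 3.88, 4.08 and 8.85 in GFP-negative arrays. In Jchain, GFP-positive array 1 and GFP-negative array 3 stood apart. Prg2, an eosinophil marker, had 3.43, 4.31 and 10.89 in GFP-positive arrays, against 9.79, 9.69 and 10.98 in GFP-negative arrays. In Prg2, GFP-positive array 3 stood apart from the other GFP-positive arrays.

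Proteins of the Bcl-2 family decide whether the outer mitochondrial membrane is breached. Survival members such as Bcl-2, Bcl-xL and Mcl-1 bind and hold back the pore-forming effectors Bax and Bak, and BH3-only members such as Bim, Bid, Bik and Noxa release or activate those effectors. In blood formation, Mcl-1 is needed for the survival of stem and progenitor cells, and Bcl-xL is known for protecting late red cell precursors.

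Of the 9 genes, 3 were higher and 2 were lower in GFP-positive arrays, and 4 were not called. Bcl2l15, Bcl2l11 and Bik were higher, while Bcl2 and Pmaip1 were lower. A call is a limma adjusted p under 0.05 after Benjamini-Hochberg adjustment over all 45037 probe sets, read from the probe set of highest mean of each gene. Among all 18193 genes 18.1% were called, with 8.15% higher and 9.92% lower, against 55.6% of the 9 family genes. Of the 30 probe sets 11 were called, against 14.0% of all probe sets. The groups did not overlap for 20 of the 30, against 38.5% of all probe sets, and they did not overlap for any of the 11 that were called. The median log2 change of the 9 genes was -0.06, beside 0.11 over all genes. The genes were chosen with earlier results of these data known, so these shares describe the list and test nothing about it.

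**Figure D1:**
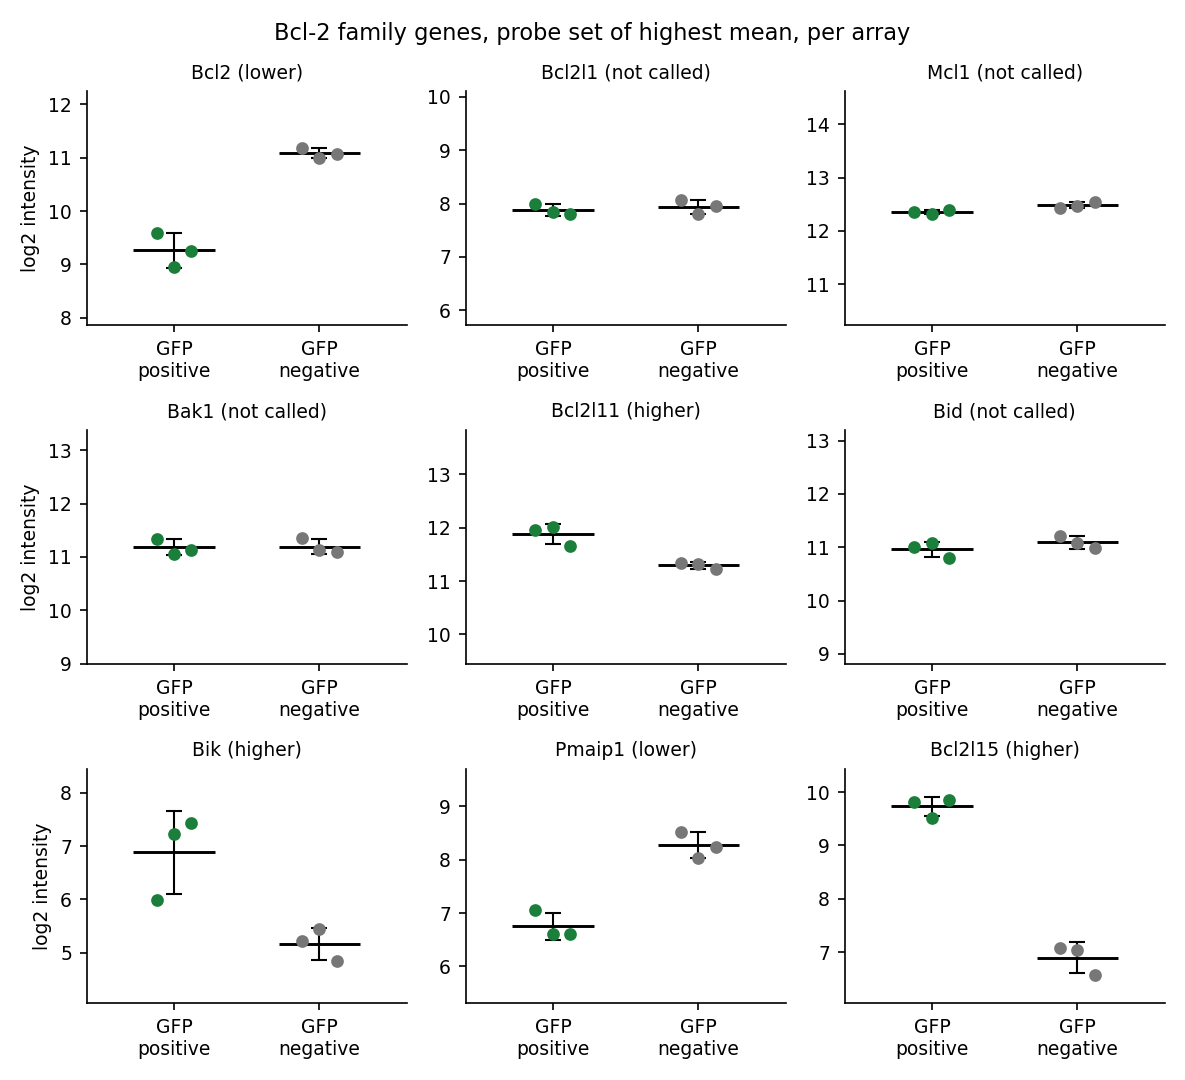
Log2 intensity of the 9 Bcl-2 family genes on each array (points), at the probe set of highest mean per gene, with the group mean (line) and SD (bar, n = 3 arrays per group). GFP-positive arrays stand left of GFP-negative arrays, and Bcl2l15, Bik and Bcl2l11 lie above while Bcl2 and Pmaip1 lie below the GFP-negative arrays.

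Promoters are shown for 3 of the 5 called genes, Bcl2l15, Bcl2l11 and Bcl2, since these include both directions of change, and those of Bik and Pmaip1 are not used here. RefSeq sequence of build GRCm38.p6 was matched for 8 of the 10 genes, and the 250 bases before the annotated start are printed 5′ to 3′ on the strand of the gene. Capitals mark matches on either strand to the GATA factor core GATAA, the Rbpj core TGGGAA or the N box CACNAG bound by Hes proteins. The windows are chr3:103832446-103832695 on the plus strand for Bcl2l15, chr2:128125788-128126037 on the plus strand for Bcl2l11 (the outer of its starts) and chr1:106714291-106714540 on the minus strand for Bcl2.
Bcl2l15: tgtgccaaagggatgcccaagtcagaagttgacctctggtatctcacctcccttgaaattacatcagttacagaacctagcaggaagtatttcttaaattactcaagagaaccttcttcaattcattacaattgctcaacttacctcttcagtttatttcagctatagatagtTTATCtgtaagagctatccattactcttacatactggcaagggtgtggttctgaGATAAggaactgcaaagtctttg
Bcl2l11: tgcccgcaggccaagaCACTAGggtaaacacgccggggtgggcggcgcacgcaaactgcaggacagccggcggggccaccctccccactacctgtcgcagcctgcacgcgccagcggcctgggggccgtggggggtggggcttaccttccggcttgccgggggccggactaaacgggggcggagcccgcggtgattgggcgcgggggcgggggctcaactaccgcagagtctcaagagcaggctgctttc
Bcl2: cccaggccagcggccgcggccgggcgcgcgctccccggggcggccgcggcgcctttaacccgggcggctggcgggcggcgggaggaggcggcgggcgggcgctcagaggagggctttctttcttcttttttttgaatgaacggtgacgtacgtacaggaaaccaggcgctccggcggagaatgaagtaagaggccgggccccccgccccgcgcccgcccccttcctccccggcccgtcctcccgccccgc
The Bcl2l15 window holds 2 GATAA matches, at bases 77 to 73 and 23 to 19 before the start, and 38.8% of its bases are G or C. This start lies 1660 bases from the 5′ end of the annotated gene, against 0 for the printed Bcl2l11 and Bcl2 starts. The Bcl2l11 window holds 1 N box match at bases 234 to 229 before the start, with 72% G or C. The window of its other start, 1537 bases from the 5′ end of the gene, is not printed and holds none of the letters searched. The Bcl2 window has 74.8% G or C and none of the letters searched. Among 32851 promoter windows of this length, 22.6% hold GATAA, 21.6% hold TGGGAA and 36.7% hold CACNAG. No overlapping matches occurred in the printed windows, and a match in these letters is a description of the sequence alone.

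Among the survival genes, Bcl2 was lower in GFP-positive cells and neither Bcl2l1 nor Mcl1 was called. Bcl2, which encodes the survival protein for which the family is named, had log2 intensities of 9.59, 8.94 and 9.26 in GFP-positive arrays, against 11.18, 11.00 and 11.08 in GFP-negative arrays (probe set 1422938_at). All 3 GFP-positive arrays lay below all 3 GFP-negative arrays. The means were 9.26 ± 0.32 in GFP-positive and 11.09 ± 0.09 in GFP-negative arrays (SD, n = 3 each), a log2 change of -1.82 (SE 0.17, limma adjusted p = 0.00198), which is 3.54-fold lower. GFP-positive arrays were more spread than GFP-negative arrays, with GFP-positive array 2 lowest. In sorted bulk samples, fewer cells that express a gene and less RNA per cell cannot be told apart.

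The other 4 probe sets of Bcl2 were also called lower. Probe set 1437122_at had 9.48, 8.45 and 9.08 in GFP-positive arrays, against 10.97, 10.99 and 11.19 in GFP-negative arrays, a log2 change of -2.05 (limma adjusted p = 0.00472). Probe set 1457687_at changed by -1.81 (limma adjusted p = 0.00459). The dimmer probe sets 1440770_at and 1443837_x_at changed by -1.26 and -2.42, with limma adjusted p of 0.0289 and 0.0309. The calls of these dimmer probe sets were lost without GFP-positive arrays 1 or 3 or GFP-negative arrays 2 or 3, and that of 1443837_x_at also without GFP-positive array 2 (limma adjusted p up to 0.100), and both without the 2 arrays with Jchain signal (0.130 and 0.154). The suffix x marks probe sets that can bind transcripts of other genes.

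Bcl2l1, which encodes Bcl-xL, had log2 intensities of 8.00, 7.84 and 7.80 in GFP-positive arrays, against 8.06, 7.80 and 7.96 in GFP-negative arrays. The groups overlapped, and the log2 change of -0.06 had a 95% interval of -0.33 to 0.21 (limma adjusted p = 0.741). Its other 3 probe sets gave changes between -0.38 and 0.06, none of them called (limma adjusted p of 0.129 or above). The 2 of these with the suffix a, which marks probe sets shared by several transcripts of 1 gene, had changes of -0.38 and -0.36, with 95% intervals of -0.73 to -0.04 and -0.71 to -0.02 that lay below 0 before adjustment over all probe sets. The groups did not overlap for the first of these and overlapped for the second. That no probe set was called does not show that the level of Bcl2l1 was equal.

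Mcl1, which encodes a short-lived survival protein, had 12.35, 12.33 and 12.40 in GFP-positive arrays, against 12.43, 12.48 and 12.54 in GFP-negative arrays. The groups did not overlap but differed by only -0.12 on the log2 scale, with a 95% interval of -0.33 to 0.08 (limma adjusted p = 0.370). Over its 6 probe sets the log2 changes ran from -0.15 to 0.24, and none was called.

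Of the 2 effector genes in the list, only Bak1 was analysed here. Bak1, which encodes a protein that forms pores in the outer mitochondrial membrane, had 11.35, 11.06 and 11.13 in GFP-positive arrays, against 11.35, 11.14 and 11.09 in GFP-negative arrays. The groups overlapped, with a log2 change of -0.02 and a 95% interval of -0.31 to 0.28 (limma adjusted p = 0.945). Its second probe set changed by 0.13 (limma adjusted p = 0.681).

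**Figure D2:**
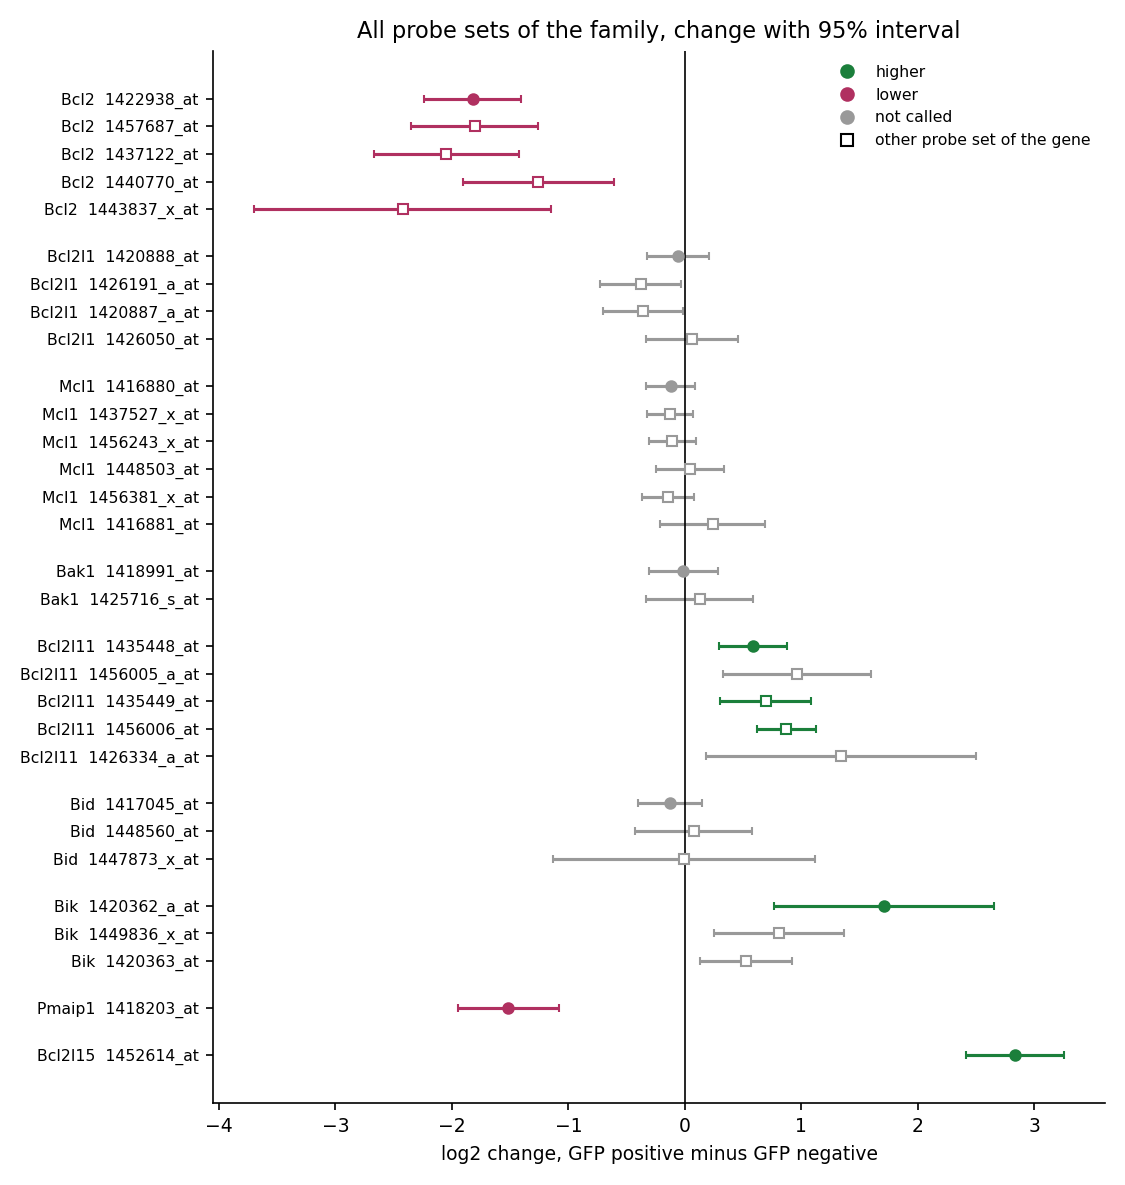
Log2 change (GFP positive minus GFP negative) with its 95% interval from limma for all 30 probe sets of the 9 measured genes, filled where the probe set has the highest mean of its gene and coloured by call. All 5 Bcl2 probe sets lie below 0, and all 5 Bcl2l11 and all 3 Bik probe sets lie above 0.

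The BH3-only genes changed in both directions, with Bcl2l11 and Bik higher, Pmaip1 lower and Bid not called. Bcl2l11, which encodes Bim, a killer protein induced in blood cells that lose their growth factor, had 11.95, 12.02 and 11.66 in GFP-positive arrays, against 11.35, 11.32 and 11.22 in GFP-negative arrays (probe set 1435448_at). The lowest GFP-positive array lay above the highest GFP-negative array. The log2 change was 0.59 (SE 0.12, limma adjusted p = 0.0262), which is 1.50-fold higher.

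All 5 probe sets of Bcl2l11 had groups that did not overlap, with changes from 0.59 to 1.34, and 3 of them were called. The call of 1435449_at (log2 change 0.69, limma adjusted p = 0.0383) was lost in 7 of 13 alternatives, among them the fits without any 1 array other than GFP-positive array 3 (limma adjusted p up to 0.118) and without both arrays that stood apart in Jchain (0.179). The probe set with the smallest spread, 1456006_at, had 6.87, 6.82 and 6.86 in GFP-positive arrays, against 6.12, 6.00 and 5.82 in GFP-negative arrays. Its log2 change was 0.87 (SE 0.11, limma adjusted p = 0.00422). This probe set was chosen for mention after its values were seen. The call of 1435448_at was lost without any 1 array other than GFP-positive array 3 (limma adjusted p of 0.0679 and 0.0816 when GFP-positive arrays 1 and 2 were left out, and 0.0553, 0.0798 and 0.0939 when GFP-negative arrays 1, 2 and 3 were). The call of 1456006_at was kept in all 13 alternatives in which it was tested (limma adjusted p from 0.00258 to 0.0465). Its GFP-negative values lay near the medians of whole arrays, 5.90 to 6.02 on the log2 scale, where a fold depends on background.

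Bik, whose protein acts at the endoplasmic reticulum and mitochondria, had 5.99, 7.22 and 7.43 in GFP-positive arrays, against 5.21, 5.45 and 4.85 in GFP-negative arrays (probe set 1420362_a_at). GFP-positive array 1 stood 1 log2 unit or more below the other GFP-positive arrays and yet above all GFP-negative arrays. The log2 change was 1.71 (SE 0.39, limma adjusted p = 0.0357), which is 3.27-fold higher. The medians of whole arrays lay between 5.90 and 6.02 on the log2 scale, so the GFP-negative values came from the dim part of the range, where a fold depends on background. The other 2 probe sets of Bik changed by 0.81 and 0.53 and were not called (limma adjusted p = 0.0683 and 0.0850). The call of Bik was kept without GFP-positive array 1 (limma adjusted p = 0.00588) and lost without each of the other arrays (limma adjusted p of 0.104 and 0.0894 when GFP-positive arrays 2 and 3 were left out, and 0.0830, 0.0753 and 0.114 when GFP-negative arrays 1, 2 and 3 were).

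Pmaip1, which encodes Noxa, a p53-inducible partner of Mcl-1, had 7.05, 6.61 and 6.60 in GFP-positive arrays, against 8.52, 8.04 and 8.24 in GFP-negative arrays. Every GFP-positive array was lower than every GFP-negative array. The log2 change was -1.51 (SE 0.18, limma adjusted p = 0.00391), which is 2.86-fold lower. Pmaip1 was measured by 1 probe set, and its call was kept in all 14 alternatives (limma adjusted p from 0.00226 to 0.0312). The alternative that takes the probe set of highest variance repeats the reported fit here and could not differ.

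Bid, which links death receptors to mitochondria once it has been cut by caspase-8, had 11.01, 11.07 and 10.81 in GFP-positive arrays, against 11.21, 11.08 and 10.98 in GFP-negative arrays. The groups overlapped, with a log2 change of -0.13 and a 95% interval of -0.41 to 0.15 (limma adjusted p = 0.481). The other 2 probe sets of Bid changed by 0.08 and -0.01 and were not called either.

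Bcl2l15, also called Bfk, is a family member described from mouse tissues of the gut and had the largest change of the 9 genes. Its log2 intensities were 9.82, 9.52 and 9.86 in GFP-positive arrays, against 7.07, 7.05 and 6.57 in GFP-negative arrays. The lowest GFP-positive array stood well above the highest GFP-negative array. The means were 9.73 ± 0.19 in GFP-positive and 6.90 ± 0.29 in GFP-negative arrays (SD, n = 3 each), a log2 change of 2.83 (SE 0.18, limma adjusted p = 0.00108), which is 7.13-fold higher. It was measured by 1 probe set, and the call was kept in all 14 alternatives (limma adjusted p from 0.000257 to 0.0233). With only 1 probe set, the alternative that takes the probe set of highest variance repeats the reported fit and could not differ.

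**Figure D3:**
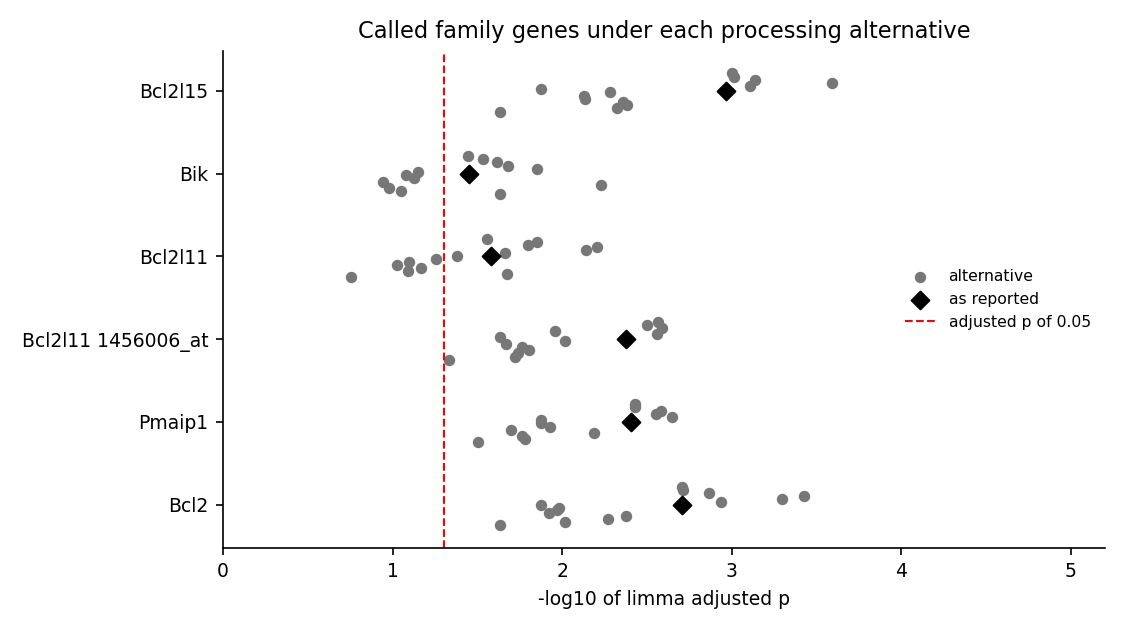
The -log10 of the limma adjusted p of the 5 called genes, with a second Bcl2l11 probe set (1456006_at), as reported (diamonds) and under each processing alternative that tested it (grey points; the choice of another probe set is not drawn), with the threshold of 0.05 as a dashed line. All points of Bcl2l15, Pmaip1, Bcl2 and Bcl2l11 1456006_at lie right of the line, while Bik and the Bcl2l11 probe set of highest mean have points on both sides. Probe set 1456006_at is drawn because it had the lowest limma adjusted p of the Bcl2l11 probe sets, so it was picked by these same values.

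The genes whose profiles over the 6 arrays were most like those of the 2 most changed members were found by the root mean square distance between log2 profiles, each centred on its own mean. For Bcl2l15 they were Trbv1, named for a T cell receptor beta segment, at a distance of 0.27, the transporter gene Slc6a20a at 0.28 and Crip2 at 0.35. For Bcl2 they were the calcium channel gene Cacna1d at 0.05, the flippase gene Atp8b4 at 0.06 and the amino acid transporter gene Slc7a6 at 0.07. Cacna1d had log2 intensities of 8.98, 8.35 and 8.61 in GFP-positive arrays, against 10.55, 10.49 and 10.43 in GFP-negative arrays, and like Bcl2 it was lowest in GFP-positive array 2. Genes were ranked over 2 groups, so any gene with a change of similar size is close by this measure.

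Markers of several blood lineages moved with the same contrast. Of 9 granulocyte and monocyte marker genes 9 fell, and of 7 multipotent progenitor genes 7 fell, while 7 of 8 erythroid genes rose. Among all genes 8.15% were called higher and 9.92% lower. The marker lists were chosen with earlier results of these data known, so these counts describe the lists and test nothing about them. The summed intensity of the granulocyte and monocyte markers ran from 28339 to 35919 in GFP-positive and from 67253 to 71172 in GFP-negative arrays. That of the multipotent markers ran from 4322 to 5033 in GFP-positive and from 13087 to 14842 in GFP-negative arrays, and that of the erythroid markers from 53275 to 57693 in GFP-positive and from 33842 to 34259 in GFP-negative arrays. Among 7 genes that mark mast cells, basophils or eosinophils, Ms4a2, Cpa3 and Mcpt8 fell and Cma1 rose. The summed intensity of the 7 was 1296 to 3798 in GFP-positive and 5864 to 6686 in GFP-negative arrays. Prg2 had a log2 change of -3.94, with its GFP-positive arrays far apart, and was not called (limma adjusted p = 0.210). Of 5 megakaryocyte genes 0 were called by limma and 2 (Pf4 and Ppbp) had an unadjusted p under 0.05, with a summed intensity of 5262 to 6235 in GFP-positive and 3721 to 4797 in GFP-negative arrays. The part of these markers in the changes of Bcl2, Pmaip1, Bcl2l11, Bik and Bcl2l15 was not tested.

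Kit, a gene whose protein was a sort marker, had log2 intensities of 11.14, 11.24 and 11.13 in GFP-positive arrays, against 11.31, 11.53 and 11.42 in GFP-negative arrays, and was not called (limma adjusted p = 0.138). The sort marker Ly6a, which encodes Sca-1, is not analysed here. The 5 measured lineage markers Cd3e, Cd4, Cd8a, Ms4a1 and Itgam lay between 3.77 and 6.63 on the log2 scale, with a summed intensity of 218 to 229 in GFP-positive and 174 to 186 in GFP-negative arrays, and none was called. Among the 9 measured T or NK cell markers, Gzmb, Gzma and Zap70 rose and Nkg7 fell, with a median log2 change of 0.45. Gzmb was 15.9-fold higher and Nkg7 2.24-fold lower in GFP-positive arrays. The summed intensity of the 9 was 4326 to 5681 in GFP-positive and 8375 to 8549 in GFP-negative arrays. Nkg7 was the brightest of the 9 on every array, so the lower sum mostly reflects this gene and not the list. Of 9 B and plasma cell genes 0 rose and 2 fell (Ighm and Cd79b), beside 8.15% higher and 9.92% lower among all genes. The median log2 change of the 9 was 0.10. Their summed intensity was 915 to 1624 in GFP-positive and 2734 to 3343 in GFP-negative arrays, and Cd79b and Ighm were the brightest of the 9. Cd79a, Mzb1 and Ms4a1 were higher in GFP-positive arrays with an unadjusted limma p under 0.05 (0.0127, 0.0149 and 0.0247) and were not called. The part of lymphoid markers in the change of Bcl2l15 or Bcl2 was not tested.

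Without GFP-positive array 1 and GFP-negative array 3, which stood apart in Jchain, the calls of Bcl2l15 (limma adjusted p = 0.0233), Bcl2 (0.0233), Pmaip1 (0.0312) and Bik (0.0233) were kept, and that of Bcl2l11 at the probe set of highest mean was lost (0.176). Across all probe sets, arrays of the same group correlated at 0.989 to 0.993 and arrays of different groups at 0.973 to 0.979, values given as a description since probe sets are not independent. Of all calls 45.3% were higher, and 61.5% after the array medians were subtracted, which moved the median log2 change over all genes to 0.19. In that setting all 5 family calls kept their direction and stayed past the threshold.

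Of 11 measured genes of the wider Bcl-2 family, 0 rose and 1 fell, beside 18.1% called among all genes. The median log2 change of the 11 was -0.13. Bnip3, which encodes a mitochondrial protein of hypoxia and mitophagy, fell by 0.61 on the log2 scale (limma adjusted p = 0.0172). Its means were 9.43 ± 0.16 in GFP-positive and 10.04 ± 0.06 in GFP-negative arrays (SD, n = 3 each). The call of Bnip3 was lost when GFP-negative array 2 or 3 was left out (limma adjusted p = 0.0559 and 0.0686). It was also lost without both arrays with Jchain signal (0.105). Bad, a BH3-only gene, had a log2 change of 0.12 (limma adjusted p = 0.680), and Bcl2l12 one of -0.28 (limma adjusted p = 0.184). Bcl2a1a, Bcl2a1b, Bcl2a1d and Bnip3l were not analysed here.

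Of 17 measured genes of caspases, the apoptosome and inhibitors of apoptosis, 5 rose and 2 fell, beside 8.15% higher and 9.92% lower among all genes, with a median log2 change of 0.11, the same as over all genes. Those that rose were Casp6, Htra2, Diablo, Birc5 and Aifm1, and those that fell were Casp8 and Birc3, with Diablo, Birc5 and Aifm1 named after their values were seen. Casp8, the caspase that cuts Bid, had 10.19, 10.19 and 10.27 in GFP-positive arrays, against 11.03, 11.14 and 11.10 in GFP-negative arrays, and fell by 0.88 on the log2 scale (limma adjusted p = 0.00218). Casp6, an executioner caspase, rose by 0.70 (limma adjusted p = 0.0102, but 0.0990 without both arrays with Jchain signal). The other probe set of Casp6 changed by 0.40 and was not called. Htra2, a mitochondrial protease that counters inhibitors of apoptosis, rose by 0.64 (limma adjusted p = 0.0133).

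Birc3, an inhibitor of apoptosis that acts in tumour necrosis factor signalling, fell by 0.59 on the log2 scale (limma adjusted p = 0.0283), and its dimmer probe set fell by 2.28. The call of Birc3 was lost without any 1 array other than GFP-negative array 3 (limma adjusted p up to 0.0867). That of Htra2 was lost when GFP-negative array 2 or 3 was left out (limma adjusted p = 0.0537 and 0.0558). It was also lost without both arrays with Jchain signal (0.118). The count of 5 that rose was 2 or 3 without any 1 array and 0 without both arrays with Jchain signal, and the count of 2 that fell was 1 without both. With trended and robust priors 5 rose and 4 fell, and among the 11260 brightest probe sets 4 rose and 4 fell.

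Genes of the death receptor pathway that were called were all lower. Of 12 measured genes 5 fell and 0 rose, beside 9.92% lower and 8.15% higher among all genes, with a median log2 change of -0.62 beside 0.11 over all genes. The receptors of tumour necrosis factor fell most. Tnfrsf1b had 8.07, 7.83 and 8.10 in GFP-positive arrays, against 9.60, 9.47 and 9.54 in GFP-negative arrays (log2 change -1.54, limma adjusted p = 0.00115). Tnfrsf1a had 9.17, 8.18 and 8.71 in GFP-positive arrays, against 10.38, 10.16 and 10.09 in GFP-negative arrays (log2 change -1.52, limma adjusted p = 0.0119). In both genes the groups were well apart at the probe set of highest mean.

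Tnfsf10, which encodes the death ligand TRAIL, fell by 1.00 on the log2 scale (limma adjusted p = 0.00278) and Tnfrsf21, a death domain receptor, by 0.99 (limma adjusted p = 0.00870). The fifth, named after its values were seen, was Cflar, which encodes an inhibitor of caspase-8 activation, at -0.88. Not every probe set of these genes was called, with 2 of 3 lower for Tnfsf10, 1 of 2 for Tnfrsf1b and 2 of 2 for Tnfrsf21. The other Tnfrsf1b probe set had a log2 change of -0.00035. The count of 5 was the same without any 1 array and without both arrays with Jchain signal.

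Of 16 measured genes that regulate the family, 1 rose and 1 fell, beside 18.1% called among all genes. The median log2 change of the 16 was 0.02. The count that rose was 2 with array medians subtracted or among the 11260 brightest probe sets, and 3 with trended and robust priors. Gata1, the erythroid transcription factor known to raise Bcl2l1, had 12.33, 12.61 and 12.48 in GFP-positive arrays, against 11.73, 11.65 and 11.58 in GFP-negative arrays, a rise of 0.82 on the log2 scale (limma adjusted p = 0.00555). Stat3, a cytokine-activated factor that can induce survival genes, had 8.30, 7.81 and 8.00 in GFP-positive arrays, against 9.30, 9.05 and 9.10 in GFP-negative arrays, and fell by 1.11 (limma adjusted p = 0.00621). Of the 4 Stat3 probe sets 1 was called, and their log2 changes ran from -1.35 to 0.06.

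**Figure D4:**
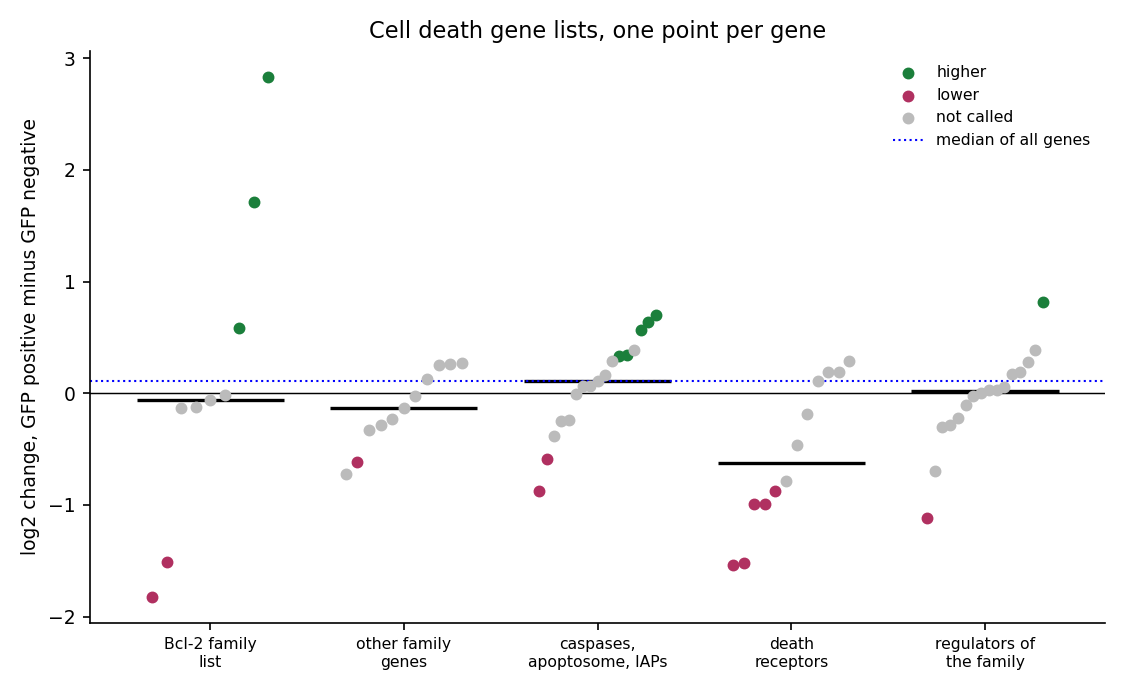
Log2 change (GFP positive minus GFP negative) of each measured gene (points, at the probe set of highest mean) in the Bcl-2 family list of 9 genes and 4 further cell death lists, coloured by limma call, with each list's median (black line) and the median of all genes (dotted line at 0.11). The Bcl-2 family list spans -1.82 to 2.83, and the 5 called genes of the death receptor pathway all lie below 0.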

How the data were processed

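Gene expression was measured on Affymetrix arrays from 6 samples, 3 GFP-positive and 3 GFP-negative. Per the labels' protocols, 5 ng of total RNA was amplified with a NuGEN Ovation kit. The authors deposited linear intensity values per probe set, which RMA had produced, per the submitters' processing notes. Settings of RMA and how its log values were made linear again are unstated in the sources used here.

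The deposited intensities were taken to log2 without further normalization. After 64 array controls were left out, 45037 probe sets were tested by 2-sided moderated tests without covariates (limma 3.58.1 under R 4.3.3), with Benjamini-Hochberg adjustment and a threshold of 0.05. Intervals are 95% intervals from limma. Platform annotation gave 1 gene for 34945 probe sets, several for 932 and none for 9160. All 30 member probe sets matched RefSeq by gene ID and symbol. Each gene is represented by whichever of its probe sets had the highest mean.

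All members were named, with up to 4 called genes of each pathway list by size of change, or the 2 of highest mean where fewer than 2 passed. Members and lists were chosen with earlier results of these data known. Alternatives were repeated quantile normalization, array medians, filters on dim probe sets, trended and robust priors, array weights, the replicate block, other probe sets and left-out arrays. The procedure was also run on simulated data with independent spread between arrays. Far fewer probe sets were changed there than were called here, so the run does not measure error rates in these data. Python 3.11.15, pandas 2.3.3 and matplotlib 3.10.9 were used for tables and figures.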

Additional observations from a re-analysis of the deposited data

How the results depend on the processing

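Bcl2, Bcl2l15 and Pmaip1 kept their direction and call in every alternative that tested them. The family counts of 3 higher and 2 lower were 1 and 1 among the 11260 brightest probe sets, where fewer genes were tested, and with 1 array left out they ran from 1 to 2 higher and stayed at 2 lower. They were 2 and 2 with the probe set of highest variance, where Bcl2l11 was not called (limma adjusted p = 0.117). Without both arrays with Jchain signal they were also 2 and 2. Over all 45037 probe sets, 2860 were higher and 3452 lower. The higher count was 5218 with array medians subtracted, and the lower count was 1893 among the 11260 brightest. With 1 array left out the higher count ran from 1212 to 2243 and the lower count from 2192 to 3098. Without both arrays with Jchain signal these counts were 681 and 1652. With fewer arrays, fewer degrees of freedom remain. Other causes were not tested.

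Replicates carry numbers in the labels, but nothing there says that a number marks a pair. With the replicate block, 1969 probe sets were higher and 2872 lower, 2 family genes were higher and 2 lower, and Bik lost its call (adjusted p = 0.0713). Deviations from group means correlated at 0.02 to 0.05 between arrays of the same number and at -0.04 to 0.02 between others, and 6 of 6 arrays correlated best with their own number.

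Of 585 single-gene and single-probe-set values under alternatives, 505 kept direction and side of the threshold, 46 lost a call, 9 gained one and 25 changed sign. The 505 include values that repeat the reported fit, as for Bcl2l15 and Pmaip1 under the choice by highest variance. None of the 25 was called in either setting. Bcl2l1 changed by 0.0753 after quantile normalization and 0.0166 with array medians subtracted, and its probe set 1426050_at by -0.0370 after quantile normalization. Bak1 changed by 0.0616 with array medians subtracted and 0.13 with the probe set of highest variance, where Mcl1 changed by 0.24. Bid probe set 1447873_x_at changed by 0.0128 after quantile normalization, 0.0675 with array medians subtracted and 0.14 with array weights. Without both arrays with Jchain signal it changed by 0.54, Bid probe set 1448560_at by -0.18 and Bad by -0.0781. With 1 array left out, the changes ran from -0.10 to 0.0636 for Bak1, from -0.0148 to 0.33 for Bak1 probe set 1425716_s_at, from -0.0253 to 0.13 for Mcl1 probe set 1448503_at, from -0.0859 to 0.16 for Bcl2l1 probe set 1426050_at, from -0.0542 to 0.28 for Bid probe set 1448560_at, from -0.35 to 0.54 for Bid probe set 1447873_x_at and from -0.0208 to 0.31 for Bad. The causes were not tested. Dim probe sets such as those of Bik lie near the background of the arrays, which limits their folds.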
